A study of Mus musculus with 17 samples.

Results

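The SR splicing factors of pancreatic β cells were examined as 10 genes, Srsf1, Srsf2, Srsf3, Srsf4, Srsf5, Srsf6, Srsf7, Srsf9, Srsf10 and Srsf11, taken by gene symbol from the 55357 genes in the deposited tables. The 10 genes had 85 of the 142376 annotated transcripts. Of these, 29 were classed as protein coding, 15 as nonsense-mediated decay, 26 as retained intron and 15 as processed transcript. Measured were the estimated read count of each gene, summed over its transcripts, and the share of its TPM (a transcript level corrected for length and for the size of the library) in the nonsense-mediated decay (NMD) and retained-intron classes. All 10 genes passed the filter on low counts and entered the gene fit. The share was fitted for 8 of them, because Srsf10 had no transcript in either class and Srsf9 averaged only 4.73 TPM, under the minimum of 5 TPM.

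SR proteins bind pre-mRNA through RNA recognition motifs and recruit the spliceosome through a tail rich in serine and arginine. Their activity and place in the cell depend on phosphorylation of that tail by the SRPK and CLK kinases. Most SR genes also hold an alternative exon or intron that brings in an early stop codon, known as a poison exon. Transcripts that include it are targets of NMD, the pathway that degrades mRNAs whose stop codon lies well upstream of the last exon junction, and this is a known means by which SR genes limit their own protein.

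RNA sequencing was done on β cells of male mice sorted by FACS for a red fluorescent reporter, after islets had been cultured for 3 days at a glucose concentration of 2.8 or 16.7 mM. Control cells (WT in the labels) came from tdTomato mice, in which RIP-Cre, a Cre transgene under the rat insulin promoter, switches on the Rosa26 tdTomato reporter. Knockout cells (PCBP2KO in the labels, here Pcbp2βKO) came from RIPCre+;Pcbp2Fl/Fl;Tdtomato mice. They were depleted of Pcbp2, which encodes a poly(C)-binding RNA-binding protein, but some Pcbp2 RNA remained (values below). The sort enriched for tdTomato-positive cells, as a means to purify β cells that had undergone Cre recombination. Control and knockout mice carried the same Cre and reporter. Markers of other cell types in the sorted samples are given below. There were 3 control samples at 2.8 mM, 4 control samples at 16.7 mM and 5 Pcbp2βKO samples at each concentration, 17 in all. The labels do not say whether replicates came from separate animals, so the p-values measure only the spread between these samples. The age of the mice used for sequencing is not given in the sources used here.

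The annotated NMD transcript with the largest share of each gene's TPM shows where these early stops lie. The sequences are given for 6 genes in which this transcript held at least 5% of the TPM on average and had a stop of its own or one used by few protein-coding transcripts, read 5′ to 3′ from the GENCODE vM39 annotation of GRCm39, with the stop codon in capitals between the 15 bases before it and the 12 bases after it.
Srsf1-204: aagaatgctttggatTAAggattgtggagc
Srsf3-201: cttctcaccaccctcTGAatctgcattagc
Srsf4-204: tctcatgccccagctTAGagtgcttcaccc
Srsf6-201: gcagccttttgccatTAGacgcagggtgat
Srsf7-203: ttgagtcagtcgcctTGAttcagaatgtca
Srsf11-210: ttccctggttcagccTGAactatataccag

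The printed window of Srsf3-201 spans chr17:29258444-29258473 on the plus strand, and its stop is in exon 4 of 7. That exon is 456 bases long, overlaps no exon of the annotated protein-coding transcript Srsf3-202, and its stop is 548 bases upstream of the last exon junction. Srsf7-203 was built alike, with the window at chr17:80512471-80512500 on the minus strand and the stop in a 460-base exon (exon 4 of 9) that none of the 4 protein-coding transcripts shares, 699 bases before the last junction. Srsf4-204 (window at chr4:131611684-131611713, plus strand, 188-base exon 1 of 6) and Srsf11-210 (window at chr3:157729834-157729863, minus strand, 109-base exon 3 of 5) also stop in exons absent from the protein-coding transcripts. The window of Srsf6-201 spans chr2:162774869-162774898 on the plus strand. Its stop is in a 268-base exon 3 of 7, and 1 of the 2 transcripts annotated as protein coding uses it too. The stop of Srsf1-204, in the window at chr11:87940824-87940853 on the plus strand, fell in a 119-base exon (exon 3 of 4) that overlaps an exon of all 3 protein-coding transcripts, 80 bases before the last junction. Srsf2-204 differs again. It uses the stop codon of both protein-coding transcripts and is classed as NMD because exon junctions follow it, the last of them 113 bases downstream.

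Pcbp2 itself was read first, as the check of the genotype labels. Pcbp2 stood at 63.4, 73.4 and 50.7 CPM (the gene's count as parts of a library scaled to a common size) in control samples at 2.8 mM and at 35.0, 45.4, 44.4 and 36.7 CPM at 16.7 mM. In Pcbp2βKO samples it ranged from 15.5 to 19.2 CPM at 2.8 mM and from 5.81 to 10.03 CPM at 16.7 mM, below every control sample. All 17 samples thus carried the Pcbp2 level of their label.

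Total estimated counts ran from 47385513 to 82419400 per sample. Along the first principal component of all genes, which held 30.02% of the variance, control replicate 4 and Pcbp2βKO replicates 4 and 5 at 16.7 mM scored 9.87, 21.4 and 33.2, while the other samples at 16.7 mM scored at least 90.9. Results are therefore given with and without these 3 samples where that changes a count. The 8 β cell markers were present in every sample, at a summed 117909 to 122020.5 CPM in control and 66585 to 96867 CPM in Pcbp2βKO cells at 2.8 mM, and 269899.8 to 522453 and 357199 to 472073 CPM at 16.7 mM. Summed acinar, endothelial and stellate markers stayed at or below 1.12 CPM. Summed macrophage markers (Cd68, Adgre1, Lyz2) were at 17.7 to 63.9 CPM in control and 25.5 to 151 CPM in Pcbp2βKO cells at 2.8 mM, against 1.76 to 14.8 and 1.44 to 13.2 CPM at 16.7 mM. Summed α cell markers were at 678 to 2601 and 530 to 1557 CPM in control cells, and at 1549 to 9404 and 950 to 1788 CPM in Pcbp2βKO cells, at 2.8 and 16.7 mM. Ppy, the PP cell hormone, was at 797 to 835 and 224 to 631 CPM in control cells and at 992 to 5112 and 290.3 to 1142 CPM in Pcbp2βKO cells, and summed δ cell markers were at 251 to 389.8 and 147 to 335 CPM, and at 480.4 to 1316 and 198 to 565 CPM, in the same order. Summed ductal markers were at 14.1 to 114 and 47.7 to 800.2 CPM in control cells and at 8.06 to 83.7 and 12.7 to 143 CPM in Pcbp2βKO cells. Summed proliferation markers reached 5.92 and 62.2 CPM in control and 12.8 and 271 CPM in Pcbp2βKO cells, at 2.8 and 16.7 mM. The part of these other cells, or of dividing cells, in the results was not tested. In sorted bulk samples, fewer cells of a type and less RNA per cell cannot be told apart.

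On the TPM scale, which allows genes to be compared within a group, Srsf5 was the most abundant SR gene in all 4 groups, Srsf7 the next and Srsf9 the least. At 2.8 mM the control means ± SD were 208 ± 28.4 TPM for Srsf5, 79.8 ± 13.7 for Srsf7 and 5.31 ± 1.25 for Srsf9 (n = 3). Srsf11, Srsf6, Srsf4, Srsf3, Srsf10, Srsf1 and Srsf2 lay between, and the ranges of Srsf4, Srsf3, Srsf10, Srsf1 and Srsf2 each overlapped that of the next gene in the order except at the last step to Srsf9. Srsf3 took rank 6 of 10 in control cells at 2.8 mM and rank 4 at 16.7 mM, and rank 7 and rank 3 in Pcbp2βKO cells. Srsf4 took rank 5 and rank 8 in control cells and rank 4 and rank 8 in Pcbp2βKO cells. TPM values were not compared between glucose concentrations, since Ins1 and Ins2 alone took 9.83 to 10.5% of the counts of control samples at 2.8 mM and 22.3 to 33.1% at 16.7 mM.

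The question for the glucose comparison was how culture in high glucose changes the SR genes of control β cells. Srsf3 rose and Srsf4 fell, and the counts of the other 8 genes did not pass the test. Srsf3, the smallest SR protein, was at 82.4, 68.9 and 95.6 CPM at 2.8 mM and at 148, 159, 201 and 149.9 CPM at 16.7 mM. Every high-glucose sample was above every low-glucose sample, and the difference was 2.00-fold (log2 fold change 1.00 ± 0.18 SE, adjusted p = 0.00163, quasi-likelihood fit in edgeR, Benjamini-Hochberg correction over all genes). Srsf4, a longer family member with an extended serine and arginine tail, moved the other way. It was at 60.6, 64.4 and 57.4 CPM at 2.8 mM and at 33.6, 24.4, 32.4 and 52.5 CPM at 16.7 mM, with no overlap. The fall was 1.70-fold (log2 fold change −0.77 ± 0.19, adjusted p = 0.0113), and the highest of the 16.7 mM values belonged to replicate 4, 1 of the 3 samples apart on the first principal component. Without those 3 samples the Srsf4 difference was −1.03 and that of Srsf3 1.02, and both passed.

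These 2 calls among 10 members stand beside 13.8% of the 22784 genes tested that were called in either direction in control cells (an adjusted p under 0.05 and a fold over 1.5), 7.15% higher and 6.69% lower. The median log2 fold change of the members was 0.19 and that of all genes 0.04. Both calls kept their direction when the libraries were scaled to total counts, which moved the median of all genes to −0.35. Leaving out control replicate 2 at 2.8 mM ended the call of Srsf4 (adjusted p = 0.0568).

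Among the other members, Srsf1 had the next largest estimate in control cells. Srsf1, the founding SR protein and an enhancer of exon inclusion, was at 26.4, 27.9 and 54.3 CPM at 2.8 mM and at 38.2, 48.6, 78.0 and 50.2 CPM at 16.7 mM. Replicate 3 was the highest sample of both groups, and the groups overlapped (log2 fold change 0.57 ± 0.26, adjusted p = 0.154). With the replicate number as a block, the value was 0.64 ± 0.19 and passed (adjusted p = 0.0236). Srsf5 was at 301, 318 and 300.2 CPM at 2.8 mM and at 247, 276, 269 and 276 CPM at 16.7 mM. Its groups did not overlap, but the difference was small (log2 fold change −0.20 ± 0.14, adjusted p = 0.390). The remaining estimates lay between 0.08 for Srsf9 and 0.28 for Srsf6 and Srsf7. Those of Srsf2, Srsf6, Srsf7, Srsf9, Srsf10 and Srsf11 changed sign under total-count scaling, so no direction is given for them.

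In Pcbp2βKO cells Srsf3, Srsf1 and Srsf6 rose with glucose and Srsf4 fell. Srsf3 was at 59.1, 59.4, 57.9, 60.6 and 85.6 CPM at 2.8 mM and at 205, 172, 183, 147 and 209 CPM at 16.7 mM. The lowest high-glucose sample was well above the highest low-glucose sample, and the difference was 2.84-fold (log2 fold change 1.51 ± 0.14, adjusted p = 2.81e-06). Srsf4 was at 67.3, 83.8, 79.5, 75.6 and 67.1 CPM at 2.8 mM and at 41.7, 35.0, 38.2, 49.5 and 44.7 CPM at 16.7 mM. The groups did not overlap, and the fall was 1.79-fold (log2 fold change −0.84 ± 0.16, adjusted p = 0.000724).

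Srsf1 was at 28.3, 26.8, 39.6, 30.8 and 43.5 CPM at 2.8 mM and at 65.8, 66.7, 68.7, 51.4 and 54.7 CPM at 16.7 mM in Pcbp2βKO cells. The groups did not overlap (1.82-fold, log2 fold change 0.86 ± 0.22, adjusted p = 0.00536). Srsf6, a splicing regulator with 2 RNA recognition motifs, was at 75.6, 63.9, 67.3, 88.9 and 105 CPM at 2.8 mM and at 139, 132, 108, 107 and 158 CPM at 16.7 mM. Its difference was 1.61-fold (log2 fold change 0.69 ± 0.16, adjusted p = 0.00293), although the highest low-glucose sample and the lowest high-glucose sample nearly met. Under total-count scaling the estimates were 0.37 for Srsf1 (adjusted p = 0.230) and 0.21 for Srsf6 (adjusted p = 0.313). That scaling also shifted the median of all genes downward (value below). With an offset for the mean length of each gene's transcripts the estimates were 0.39 (adjusted p = 0.192) and 0.55 (adjusted p = 0.0130, a fold under 1.5). Both calls were thus lost under total-count scaling and under the length offset. The calls of Srsf3 and Srsf4 passed under both.

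Srsf7, an SR protein with a zinc knuckle, was at 133, 133, 142, 135 and 130.1 CPM at 2.8 mM and at 209, 192, 202, 181 and 189.5 CPM at 16.7 mM. All 5 high-glucose samples were above all 5 low-glucose samples and the adjusted p was 0.000714, but the fold was under 1.5 (log2 fold change 0.53 ± 0.10), and under total-count scaling the difference was 0.05 (adjusted p = 0.807). Srsf2, known as SC35 and used as a marker of nuclear speckles, ranged from 11.8 to 18.4 CPM at 2.8 mM and from 16.4 to 18.4 CPM at 16.7 mM. Srsf2 did not pass (log2 fold change 0.28 ± 0.17, adjusted p = 0.237), and the estimates of Srsf5, Srsf9, Srsf10 and Srsf11 lay between −0.11 and 0.07. The 4 calls among 10 members stand beside 23.8% of all genes called in Pcbp2βKO cells, 13.4% higher and 10.4% lower.

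**Figure D1:**
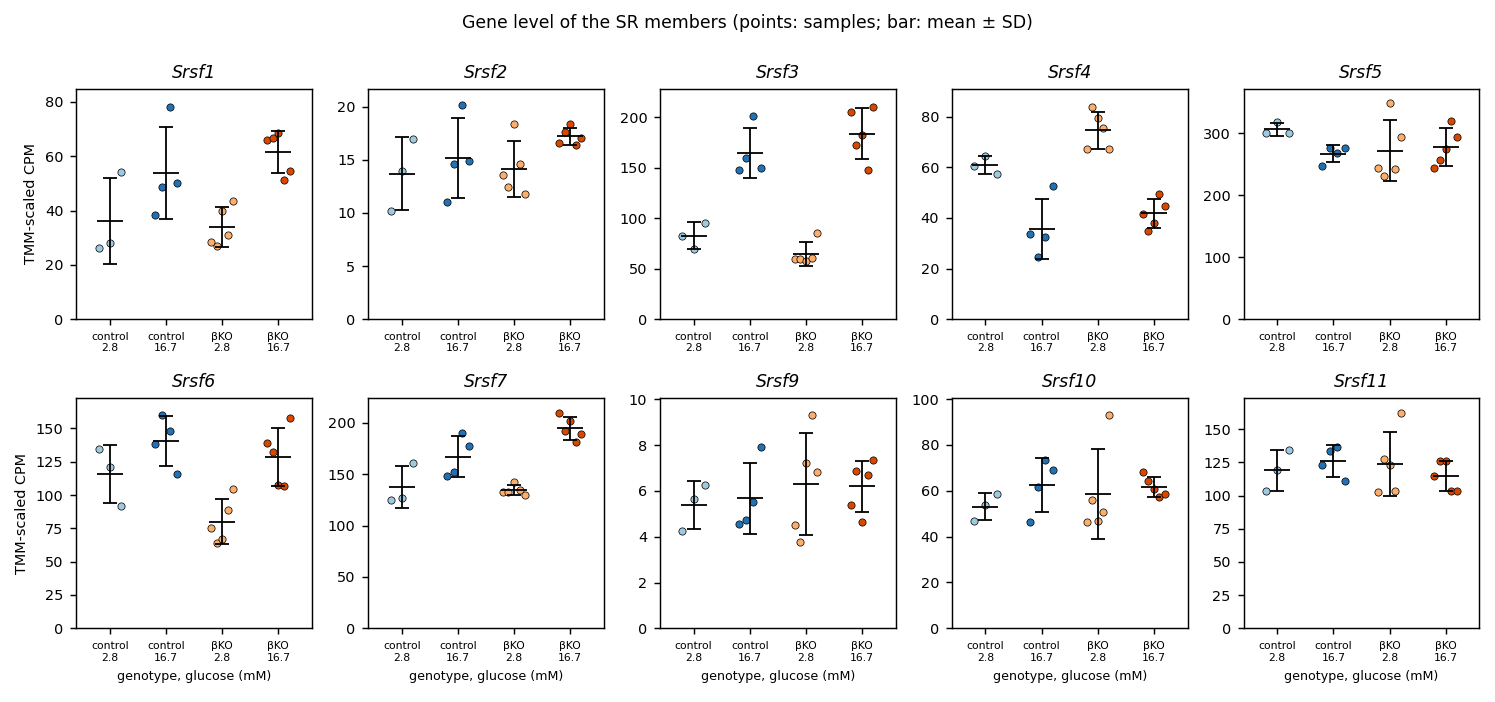
CPM after TMM scaling (y axis, from 0) of the 10 SR genes in each of the 17 samples, grouped on the x axis by genotype (βKO is Pcbp2βKO) and glucose in mM. Points are samples and bars the mean ± SD; the Srsf3 points at 16.7 mM lie above all points at 2.8 mM, the Srsf4 points at 16.7 mM lie below them, and the Srsf9 points stay under 10 CPM.

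The share of each gene's TPM in NMD and retained-intron transcripts was compared in the same way. In control cells the share fell with glucose for Srsf1, Srsf2, Srsf3 and Srsf7 and rose for none of the 8 genes fitted. Srsf3 shares were 49.7, 64.2 and 52.0% at 2.8 mM and 25.4, 31.9, 24.3 and 37.1% at 16.7 mM. Every high-glucose share was below every low-glucose share, with means of 55.3% and 29.7% (difference on the logit scale −1.08 ± 0.21 SE, adjusted p = 0.0102, limma). Srsf7 shares were 68.1, 72.0 and 68.5% at 2.8 mM and 40.7, 47.4, 46.3 and 54.9% at 16.7 mM. They did not overlap, and the mean fell by 22.2 percentage points (logit difference −0.92 ± 0.16, adjusted p = 0.00599).

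Srsf2 shares were 82.2, 82.3 and 74.9% at 2.8 mM and 65.9, 60.9, 59.8 and 68.0% at 16.7 mM. Srsf2 had the highest share of the 8 genes in both control groups, and the difference passed (logit difference −0.81 ± 0.14, adjusted p = 0.00507). Srsf1 shares were 62.0, 64.0 and 60.5% at 2.8 mM and 44.5, 29.9, 38.5 and 51.9% at 16.7 mM. The groups did not overlap (logit difference −0.85 ± 0.21, adjusted p = 0.0393), but this call was lost in 10 of the 17 fits that left out 1 sample, with an adjusted p of up to 0.1801. The Srsf3 call was lost without control replicate 2 at 2.8 mM (adjusted p = 0.0960), which had the highest Srsf3 share of its group.

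Across all 4321 genes whose share was fitted, 2.55% were called in control cells, 1.62% lower and 0.926% higher, against 4 of the 8 SR genes, all lower. The median logit difference was −0.67 over the 8 SR genes and 0.01 over all genes fitted. Srsf6 went from a mean of 65.0% to 52.4% in control cells but its groups overlapped (adjusted p = 0.198). Srsf4, Srsf11 and Srsf5 differed by −2.75, −3.35 and 3.00 percentage points and did not pass (adjusted p = 0.855, 0.774 and 0.822).

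Shares of the same 4 genes fell with glucose in Pcbp2βKO cells. Srsf3 shares were 61.3, 71.8, 75.3, 61.2 and 59.6% at 2.8 mM and 26.4, 25.7, 27.5, 35.9 and 24.7% at 16.7 mM. The mean fell by 37.8 percentage points, the widest difference of any member in either genotype (logit difference −1.60 ± 0.17, adjusted p = 5.84e-05). Srsf7 shares were 67.4, 76.0, 74.1, 70.0 and 70.5% at 2.8 mM and 45.6, 50.8, 47.6, 58.5 and 40.1% at 16.7 mM (adjusted p = 0.000274). Srsf1 shares were 64.0, 61.6, 65.9, 68.1 and 65.3% at 2.8 mM and 29.4, 40.4, 36.0, 52.7 and 47.8% at 16.7 mM (adjusted p = 0.00181). In all of these the highest share at 16.7 mM was below the lowest at 2.8 mM. Srsf2 shares were between 80.1 and 82.8% in all 5 samples at 2.8 mM and between 61.8 and 73.6% at 16.7 mM (adjusted p = 0.000730).

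Srsf6 was on the edge of the threshold in Pcbp2βKO cells. Its shares were 72.7, 69.7, 74.1, 70.5 and 64.4% at 2.8 mM and 55.2, 48.8, 63.3, 61.0 and 61.0% at 16.7 mM, with no overlap (logit difference −0.54 ± 0.18, adjusted p = 0.0585). Srsf4, Srsf5 and Srsf11 did not pass. The 4 calls among 8 genes, all lower, stand beside 12.5% of all shares fitted that were called in Pcbp2βKO cells, 7.50% lower and 5.00% higher. Without the 3 samples apart on the first principal component 4 shares were again called in each genotype, all lower.

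Over the whole library, NMD and retained-intron transcripts also held less of the TPM in every sample at 16.7 mM than in any at 2.8 mM. They made up 3.16 to 3.36% of all TPM in control samples at 2.8 mM and 1.48 to 1.99% at 16.7 mM (exact permutation test, two-sided p = 0.0286, the smallest that 3 against 4 samples allow). In Pcbp2βKO samples they made up 3.10 to 4.24% and 1.33 to 1.73% (exact permutation test, two-sided p = 0.00794, the smallest that 5 against 5 allow). With Ins1 and Ins2 left out the means were 4.93 and 4.09% in control cells (exact p = 0.0571) and 4.84 and 3.88% in Pcbp2βKO cells (exact p = 0.0159). Over the 52 library-wide tests of this kind no adjusted p was below 0.103. How far the library-wide difference accounts for that of the SR genes was not tested.

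**Figure D2:**
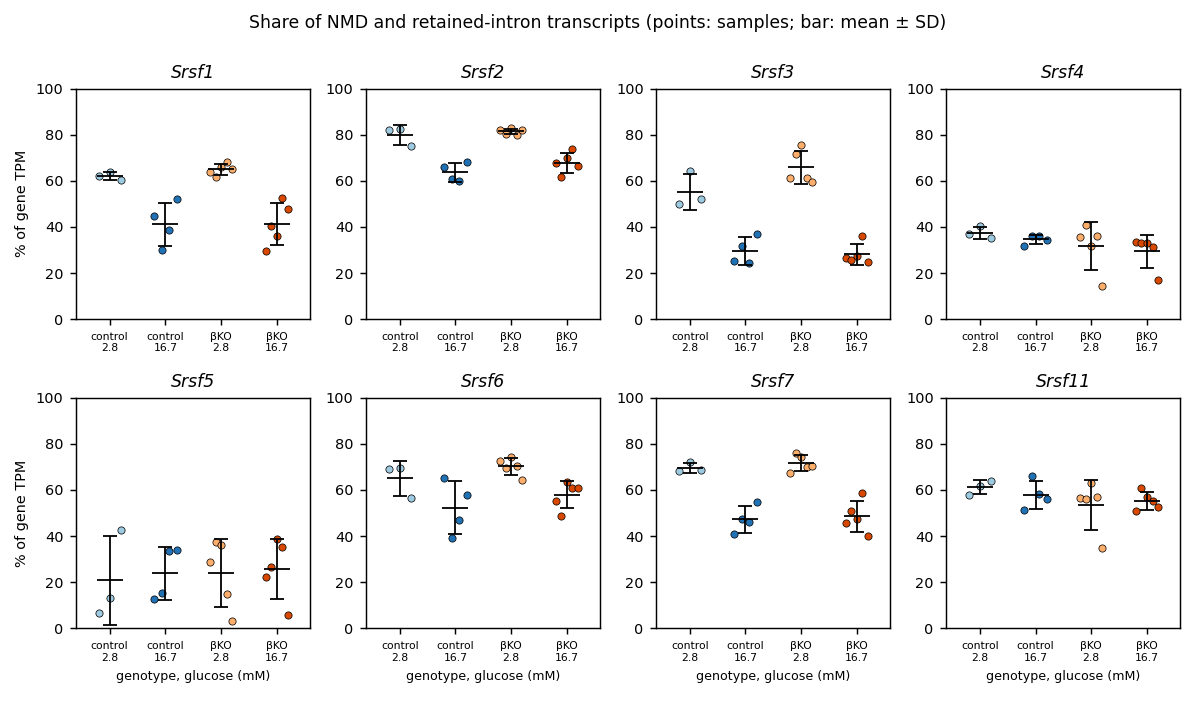
Share of each gene's TPM in NMD and retained-intron transcripts (y axis, 0 to 100%) for the 8 SR genes fitted, by sample, grouped on the x axis by genotype and glucose in mM. Points are samples and bars the mean ± SD; Srsf1, Srsf2, Srsf3 and Srsf7 are lower at 16.7 mM in both genotypes without overlap, while the Srsf5 samples spread from 3.19 to 42.8%.

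The 2 transcript classes did not contribute equally in each gene. For Srsf3 the NMD class went from 30.5 to 13.1% of the gene's TPM in control cells and from 38.4 to 11.8% in Pcbp2βKO cells, and the retained-intron class from 24.9 to 16.6% and from 27.4 to 16.2%. For Srsf7 most of the share was retained intron, which went from 45.2 to 30.04% in control cells and from 44.2 to 30.3% in Pcbp2βKO cells. For Srsf2 most of the share was NMD, at 67.8 and 54.2% of the gene's TPM in control cells and 68.9 and 58.6% in Pcbp2βKO cells, with a retained-intron part of 12.03 and 9.42% and of 12.5 and 9.23%. With the NMD class fitted alone, the calls were Srsf2 and Srsf3 in control cells and Srsf1, Srsf2, Srsf3 and Srsf7 in Pcbp2βKO cells, all lower. With the retained-intron class fitted alone, none of the SR genes was called in either genotype. What share of all genes was called in these single-class fits is not given here.

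**Figure D3:**
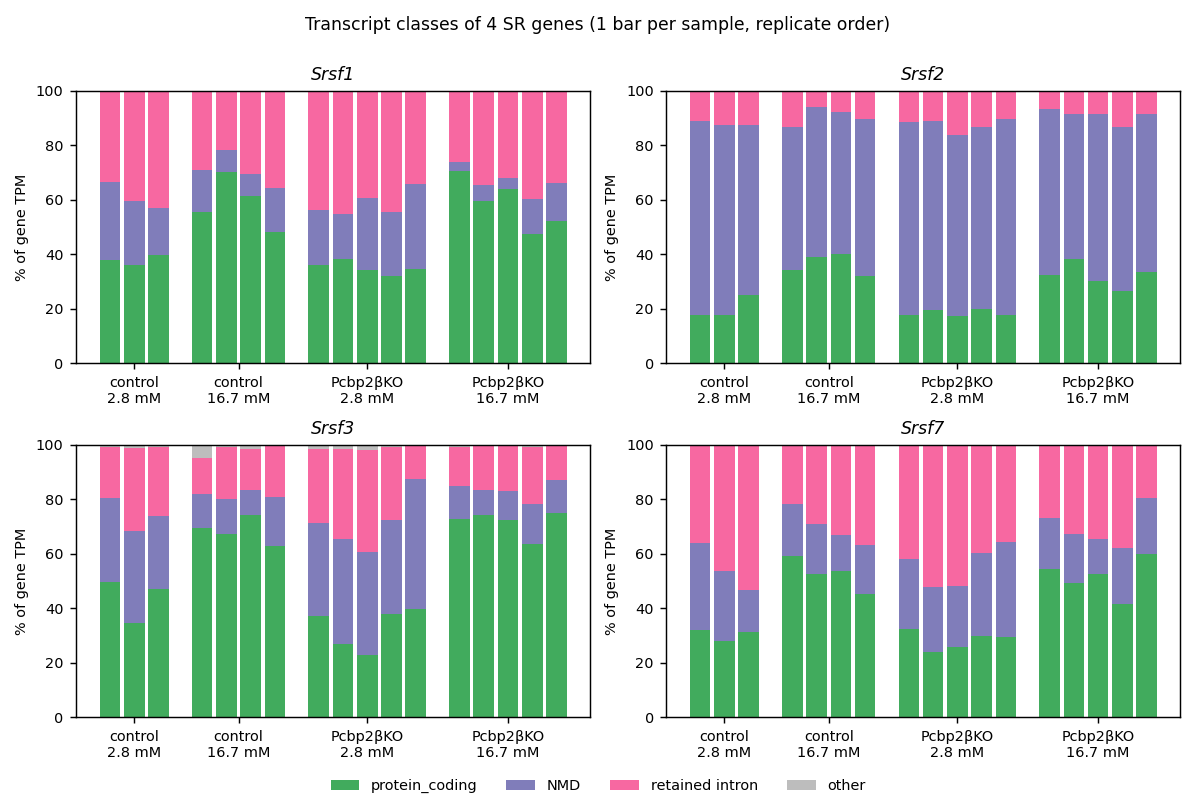
Stacked bars of the share of gene TPM (y axis, 0 to 100%) in protein-coding, NMD, retained-intron and other transcripts of Srsf1, Srsf2, Srsf3 and Srsf7, with 1 bar per sample in replicate order and groups by genotype and glucose along the x axis. The protein-coding part is larger in every 16.7 mM bar than in any 2.8 mM bar of the same genotype for Srsf3, whose NMD part is 30.5% on average in control cells at 2.8 mM and 13.1% at 16.7 mM.

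At the level of single transcripts, the protein-coding Srsf3-202 and Srsf7-208 rose with glucose in both genotypes, while the counts of the NMD transcripts Srsf3-201 and Srsf7-203 did not pass. Kallisto divides reads between overlapping isoforms, so these are estimates. Srsf3-202, the annotated protein-coding transcript of Srsf3, made up 49.6, 34.7 and 47.2% of the gene's TPM in control cells at 2.8 mM and 69.6, 67.3, 74.3 and 62.8% at 16.7 mM. Its count rose 3.18-fold (log2 fold change 1.67 ± 0.32, adjusted p = 0.00929, edgeR on transcripts). In Pcbp2βKO cells Srsf3-202 made up 37.3, 26.9, 22.8, 37.9 and 39.9% at 2.8 mM and 72.7, 74.3, 72.2, 63.4 and 74.9% at 16.7 mM. That rise was 6.18-fold (log2 fold change 2.63 ± 0.27, adjusted p = 2.81e-05). The poison-exon transcript Srsf3-201, whose stop is printed above, made up 30.9, 33.8 and 26.7% in control cells at 2.8 mM and 12.5, 12.8, 8.93 and 18.1% at 16.7 mM. Its own count differed little (log2 fold change −0.20 ± 0.25 in control cells, adjusted p = 0.747, and −0.21 ± 0.21 in Pcbp2βKO cells, adjusted p = 0.591).

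Srsf7 showed the same arrangement. Srsf7-208, a 1040-base protein-coding transcript, made up 6.91, 4.07 and 1.58% of the gene's TPM in control cells at 2.8 mM and 37.8, 28.5, 23.6 and 9.90% at 16.7 mM. Its log2 fold change was 3.08 ± 0.82 in control cells (adjusted p = 0.0411) and 2.96 ± 0.65 in Pcbp2βKO cells (adjusted p = 0.00581). The call in control cells was lost in 11 of the 17 fits that left out 1 sample, with an adjusted p of up to 0.172 without control replicate 2 at 2.8 mM, and that in Pcbp2βKO cells in none of them. At 16.7 mM, control replicate 4 and Pcbp2βKO replicates 4 and 5, the samples apart on the first principal component, had the lowest Srsf7-208 shares of their groups. The poison-exon transcript Srsf7-203 had log2 fold changes of −0.04 ± 0.20 and 0.01 ± 0.16 and did not pass.

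In control cells 3 of the 72 SR transcripts tested were called, Srsf3-202 and Srsf7-208 higher and the minor protein-coding Srsf2-206 lower (log2 fold change −1.87 ± 0.51, adjusted p = 0.0471). The Srsf2-206 call was lost in 15 of the 17 fits that left out 1 sample (adjusted p of up to 0.255, without control replicate 2 at 2.8 mM) and without the 3 samples apart (adjusted p = 0.0867). Over all 65504 transcripts 4.68% were called, 2.22% higher and 2.46% lower. With the replicate number as a block 9 SR transcripts were called, 4 of them higher, and without the 3 samples apart 5 were called, 2 of them higher. The 4.68% belongs to the main fit, and the share of all transcripts called under these alternatives is not given here. The larger counts are therefore not read as particular to the SR transcripts. The number called without 1 sample ran from 0, without control replicate 2 at 2.8 mM, to 4. The Srsf3-202 call was lost without that sample alone (adjusted p = 0.0684), and it was 1.74 under the block.

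In Pcbp2βKO cells 15 SR transcripts were called, 9 higher and 6 lower, beside 13.8% of all transcripts, 7.57% higher and 6.24% lower. Of the 9 that rose, 8 were protein coding, the class of 27 of the 72 SR transcripts tested. The part of this class among all transcripts called higher was not counted. The 8 were Srsf1-201 (1.27), Srsf1-205 (0.90), Srsf2-201 (1.06), Srsf3-202, Srsf6-203 (1.06), Srsf7-201 (0.94), Srsf7-205 (1.59) and Srsf7-208, with log2 fold changes in parentheses. The other was the retained-intron transcript Srsf3-204 (0.88). Of the 6 that fell, 3 were protein coding, Srsf4-202 (−0.81), Srsf5-205 (−1.59) and Srsf2-206 (−1.51), 1 was the NMD transcript Srsf4-204 (−1.06), and 2 were processed transcripts, Srsf5-211 (−1.14) and Srsf10-207 (−1.02). The mean Srsf4 share was 31.7% at 2.8 mM and 29.5% at 16.7 mM (adjusted p = 0.863). Srsf1-204, the NMD transcript of Srsf1, had a log2 fold change of −1.21 ± 0.44 and missed the threshold (adjusted p = 0.0784). Without the 3 samples apart it was −2.11 and passed (adjusted p = 0.00420), while Srsf4-204 (adjusted p = 0.0881) and Srsf2-206 (adjusted p = 0.0765) no longer did. The Srsf4-204 call was also lost in 11 of the 17 fits that left out 1 sample (adjusted p of up to 0.124, without Pcbp2βKO replicate 2 at 2.8 mM), and the Srsf2-206 call without Pcbp2βKO replicate 4 at 2.8 mM (adjusted p = 0.0864) or replicate 1 at 16.7 mM (adjusted p = 0.0670).

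In Srsf10 and Srsf5 single isoforms differed while the count of the gene did not pass. Srsf10-207, a 717-base processed transcript of this splicing regulator, made up 33.4 ± 7.51% of the gene's TPM in control cells at 2.8 mM and 18.2% on average at 16.7 mM, and 38.2 and 20.9% in Pcbp2βKO cells. Only the difference in Pcbp2βKO cells passed (adjusted p = 0.0349), and it was lost in 6 of the 17 fits that left out 1 sample, each of them a Pcbp2βKO sample (adjusted p of up to 0.0876, without replicate 3 at 16.7 mM). Srsf5-205 averaged 13.9 and 7.23% of Srsf5 TPM in control cells and 16.5 and 5.76% in Pcbp2βKO cells, and passed in Pcbp2βKO cells (adjusted p = 0.00549) but not in control cells (log2 fold change −1.30 ± 0.41, adjusted p = 0.0802). In control cells it was called with the replicate number as a block (−1.47, adjusted p = 0.00535) and without the 3 samples apart (−1.50, adjusted p = 0.0300). That these differences differ between genotypes is not shown, as neither interaction passed. The retained-intron transcript Srsf5-212 varied most between replicates, at 5.25, 11.5 and 39.1% in control cells at 2.8 mM.

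Summing only the protein-coding transcripts of each gene, an alternative to summing all, gave more called SR genes. What share of all genes was called under this sum is not given here. The larger count is therefore not read as particular to the SR genes. In control cells Srsf3 (log2 fold change 1.71, adjusted p = 0.00161) and Srsf7 (0.89, adjusted p = 0.00235) were higher and Srsf4 (−0.72, adjusted p = 0.0139) lower. In Pcbp2βKO cells Srsf3 (2.63), Srsf7 (1.20), Srsf1 (1.07), Srsf6 (1.053) and Srsf2 (0.90) were higher and Srsf4 (−0.82) lower. Srsf7 and Srsf2 were not called by the sum of all transcripts.

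The knockout itself was compared with control at each glucose concentration, to ask whether depletion of Pcbp2 alters the SR genes. None of the 10 genes was called at either concentration, nor in the test of whether the glucose response differs between genotypes. At 16.7 mM the log2 fold changes ran from −0.14 for Srsf11 to 0.23 for Srsf4, and the intervals of 2 SE on either side reached from −0.46 to 0.65. At an unadjusted p under 0.05 there were 0 of 10 in edgeR, and DESeq2 also called 0. Over all genes 1.71% were called at this concentration.

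At 2.8 mM the estimates ran from −0.53 for Srsf6 to 0.30 for Srsf4, with intervals from −0.89 to 0.79, and 2.04% of all genes were called. Srsf6 and Srsf3 had an unadjusted p under 0.05. How many of all genes did so is not given here, and nothing is read from that count. Srsf6 was at 134, 121 and 91.6 CPM in control and at 75.6, 63.9, 67.3, 88.9 and 105 CPM in Pcbp2βKO samples, which overlapped (log2 fold change −0.53 ± 0.18, adjusted p = 0.165). Srsf3 was −0.35 ± 0.16 (adjusted p = 0.369). DESeq2 called 0 of 10 here as well. These values and those for glucose in control cells share the 3 control samples at 2.8 mM.

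For the interaction, the estimate of Srsf3 was 0.51 ± 0.22 (unadjusted p = 0.0337, adjusted p = 1), and those of the others ran from −0.19 to 0.40. Srsf3 was the only member under an unadjusted p of 0.05, a threshold for which no count over all genes is given here. DESeq2 called 0 of 10, and 0.00439% of all genes were called. The 2.84-fold and 2.00-fold rises of Srsf3 in Pcbp2βKO and control cells were therefore not shown to differ.

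Shares and transcripts gave the same picture for the knockout. None of the 8 shares was called in limma at 16.7 mM, at 2.8 mM or in the interaction, where 0.0463%, 0% and 0% of all shares were called. The only unadjusted p under 0.05 was that of Srsf3 at 2.8 mM (logit difference 0.45 ± 0.20, adjusted p = 0.814). Its mean share was 55.3% in control and 65.8% in Pcbp2βKO cells, with overlapping samples. Over all genes, 244 of 4321 shares had an unadjusted p under 0.05 at 2.8 mM. The interaction of the Srsf3 share was −0.52 ± 0.27 (unadjusted p = 0.0684). Of the 72 transcripts, 0 were called by edgeR in any of these comparisons, beside 0.392%, 0.504% and 0.00153% of all transcripts. At an unadjusted p under 0.05 there were 0 at 16.7 mM, 4 at 2.8 mM (Srsf3-202, Srsf3-204, Srsf6-203 and Srsf7-205) and 3 in the interaction (Srsf3-202, Srsf3-204 and Srsf7-205). How many of all transcripts met this unadjusted threshold is not given here, and nothing is read from these counts.

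**Figure D4:**
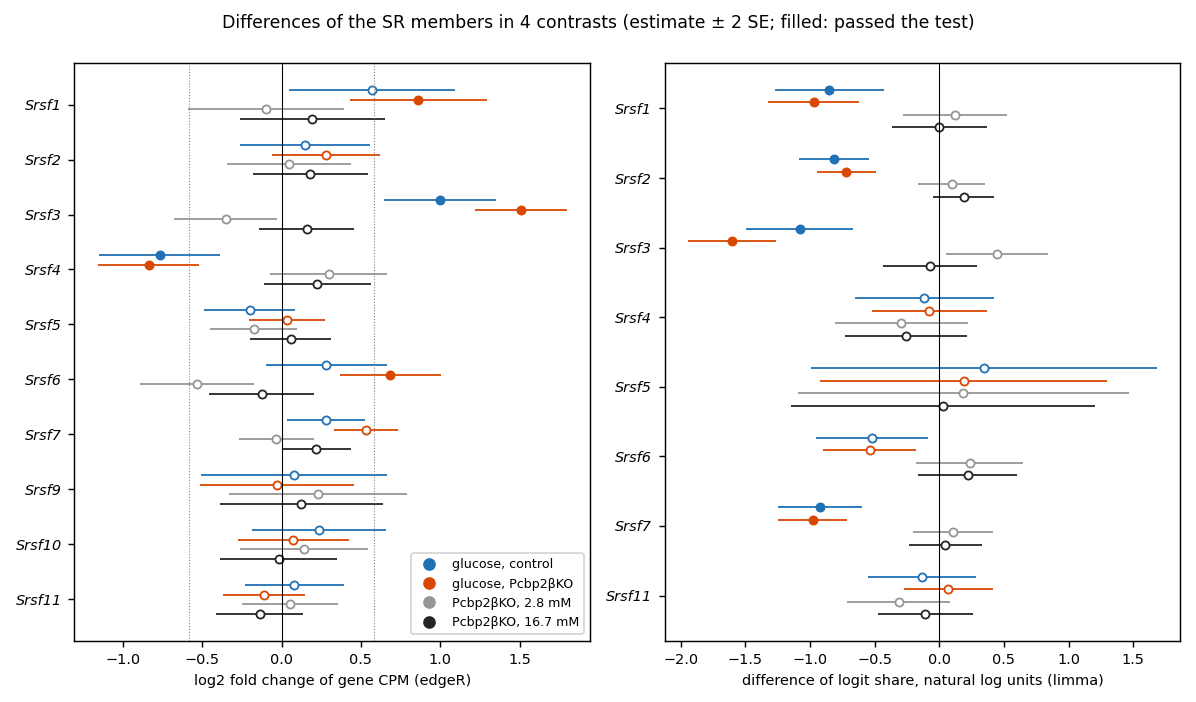
Left, log2 fold change of gene counts (x axis, edgeR) for the 10 SR genes (y axis); right, difference of the logit share of NMD and retained-intron transcripts (x axis, limma) for 8 of them. Points are estimates with bars of 2 SE, colours mark the 4 contrasts, filled points passed the test and dotted lines mark a fold of 1.5. The filled points belong to the glucose contrasts; all knockout points are open.

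Genes that act with the SR proteins were grouped in 4 lists. In control cells 2 of 10 SR kinases and import factors, 2 of 16 SR-related proteins, 3 of 18 NMD factors and 1 of 15 spliceosome partners were called with glucose, beside 13.8% of all genes. In Pcbp2βKO cells 2, 5, 3 and 2 were called, beside 23.8% of all genes. These shares lay on either side of the background in both genotypes, and nothing particular to the lists is read from them. Of 10 SR kinases and import factors, Clk1 and Clk4 fell in both genotypes and none rose. CLK kinases phosphorylate SR proteins in the nucleus. Clk4 averaged 121 and 55.5 CPM in control cells (log2 fold change −1.12 ± 0.17, adjusted p = 0.000655) and 134 and 56.3 CPM in Pcbp2βKO cells (−1.25 ± 0.14, adjusted p = 1.02e-05). Clk1 averaged 149 and 75.7 CPM in control cells (−0.98 ± 0.28, adjusted p = 0.0232) and 166 and 80.6 CPM in Pcbp2βKO cells, where samples overlapped (−1.04 ± 0.24, adjusted p = 0.00266). The median of this list was −0.27 in control cells, against 0.04 over all genes, and −0.41 in Pcbp2βKO cells, against 0.01.

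Of 16 SR-related proteins, 2 fell in control cells, Rnps1 (−0.77, adjusted p = 0.00782) and Luc7l (−0.75, adjusted p = 0.00177), and none rose. Rnps1 is a part of the exon junction complex and Luc7l a partner of the U1 snRNP. In Pcbp2βKO cells 4 fell, Rnps1 (−0.87), Luc7l (−0.76), Srrm1 (−0.70) and Luc7l3 (−0.61), and Srsf12 rose from a low level (1.18 to 2.48 CPM on average, log2 fold change 1.07 ± 0.30, adjusted p = 0.0120). Srsf12 was also lower in Pcbp2βKO than in control cells at 2.8 mM (−1.38 ± 0.34, adjusted p = 0.0382), the only gene of the 4 lists given here that was called between genotypes.

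Of 18 NMD factors, Upf3b and Nbas rose and Rnps1, which stands in both lists, fell in each genotype. Upf3b, which links the exon junction complex to the NMD machinery, averaged 34.7 and 53.2 CPM in control cells (log2 fold change 0.62 ± 0.17, adjusted p = 0.0175) and 25.2 and 51.7 CPM in Pcbp2βKO cells (1.04 ± 0.14, adjusted p = 3.29e-05). Nbas, an NMD factor at the endoplasmic reticulum, had values of 0.65 and 0.75. Of 15 spliceosome partners, U2af1, the subunit that reads the 3′ splice site, fell in both genotypes (−0.84 and −0.81). Snrnp70, a U1 protein, rose in Pcbp2βKO cells (0.85, adjusted p = 0.000185). The median of this list was −0.21 in control and −0.29 in Pcbp2βKO cells, against 0.04 and 0.01 over all genes. For NMD factors the medians were −0.14 and −0.11, and for SR-related proteins −0.03 and 0.06.

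The spans of some member genes, introns included, overlap those of others, mostly on the opposite strand. Whether reads were counted by strand is not stated. Overlap of exons was not examined, so how far reads of these genes could be confused is not known. Srsf2 (chr11:116740723-116744518) lies wholly within Mettl23 and partly within Mfsd11. Srsf9 (chr5:115465189-115476335) overlaps Gatc over 8518 bases, and Srsf10 (chr4:135583043-135602548) overlaps Pnrc2 over 3657 bases. Srsf3 (chr17:29251321-29262347) lies within the span of the lncRNA Trp53cor1. Srsf4 and Srsf5 overlap lncRNAs over 17092 and 6161 bases, and Srsf5 overlaps Slc10a1 over 1259 bases. On the same strand, Srsf4 overlaps A930004J17Rik over 4610 bases and Srsf11 overlaps Gm43362 over 2470 bases.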

How the data were processed

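RNA sequencing of 17 FACS-sorted β cell samples was analysed. Per the file headers and the study's methods, the authors quantified reads with Kallisto against the mouse GRCm39 (mm39) transcriptome, without pooling, and the table deposited for each library gives every transcript's estimated count and TPM. The transcript annotation behind their index is not given in the sources used here. The deposited estimated counts were summed per gene and rounded to whole numbers, and the deposited TPM values gave each gene's share in the NMD and retained-intron classes.

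Groups were taken from the labels. A 4-group model over all samples was fitted with edgeR 4.0.16 (R 4.3.3), with TMM scaling, filterByExpr and quasi-likelihood tests, for 22784 genes and 65504 transcripts. A call was a Benjamini-Hochberg adjusted p under 0.05 and a fold over 1.5. Logit shares (offset 0.005) of 4321 genes with a mean of at least 5 TPM and a mean share between 0.01 and 0.99 were fitted with limma 3.58.1, with calls at an adjusted p under 0.05. The study's batch factor has no levels in the labels and was not used. CPM values are after TMM scaling (factors 0.75 to 1.29). Scripts were tested on simulated data. Depth was 47385513 to 82419400 estimated counts per sample. Sequence windows were read from the GENCODE vM39 transcript sequences, with positions from its annotation of GRCm39. In that release 63 of the 85 transcripts matched with the version of the identifier and all 85 without it.

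Replicate numbers were checked as pairs by correlating deviations from the group means. Between the 2 control groups all 3 correlations of equal numbers were over 0.1 (0.123 to 0.258). Between the other groups at least 1 was not. The main fits were unpaired in all comparisons. The replicate number entered only as a block over all samples, as 1 of the alternatives. Alternatives were DESeq2 1.42.0, 2 other scalings, no filter, a length offset, protein-coding transcripts alone, other shares, offsets and TPM minimums, the replicate block and leaving out samples. Library-wide values were compared with exact permutation tests.

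The members and gene lists were chosen with earlier results of these data known. Named were the 10 members, their transcripts with at least 5% of the gene's TPM on average or called in a contrast, Pcbp2, up to 4 called genes per list and contrast, and the 5 genes most like the members on each measure.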

Additional observations from a re-analysis of the deposited data

Results flagged for a closer look

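Single samples stood apart from the rest of their group in 6 of the 57 groups of 4 or 5 samples tested for an outlying value (Dixon's test at 95%), which flags about 1 group in 20 by chance. Pcbp2βKO replicate 5 at 2.8 mM gave 3 of the 6. Its Srsf3 level was 6.42 log2 CPM, with the nearest sample of its group at 5.92. Its Srsf10 level was 6.54 log2 CPM, with the nearest at 5.81. Its share of Srsf11 TPM in NMD and retained-intron transcripts was 35.0%, with the nearest at 56.2%.

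At 16.7 mM, Pcbp2βKO replicate 5 had a Srsf4 share of 16.8%, with the nearest at 31.1%, and Pcbp2βKO replicate 4 had a Srsf3 share of 35.9%, with the nearest at 27.5%. Control replicate 3 at 16.7 mM had a Srsf9 share of 9.11%, while the other 3 samples were at 0. Srsf9 averaged 4.73 TPM and its share was not tested.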

How the results depend on the processing

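Over the 5 comparisons, no SR gene, share or transcript that was called changed direction under any alternative, and all counts of 0 for the knockout and interaction comparisons stayed at 0. The counts that moved by more than 1.5 times belonged to the glucose comparisons. With NMD transcripts alone, 2 shares were called in control cells, and with retained-intron transcripts alone 0 in control and 0 in Pcbp2βKO cells. Called SR transcripts in control cells numbered 9 with the replicate block and 5 without the 3 samples apart on the first principal component. When 1 sample was left out, called genes numbered 1 to 3 in control and 4 to 4 in Pcbp2βKO cells, called shares 2 to 4 and 4 to 5, and called transcripts 0 to 4 and 12 to 17; the low ends in control cells came without control replicate 2 at 2.8 mM. Only 1 SR transcript was called in control cells without control replicate 1 at 2.8 mM, without control replicate 1, 2 or 3 at 16.7 mM, without Pcbp2βKO replicate 1 at 2.8 mM, or without Pcbp2βKO replicate 1, 2 or 3 at 16.7 mM. The replicate block gave 3 called genes in control cells, adding Srsf1, and changed no other gene or share call in control cells. For the 5 same-number pairs of Pcbp2βKO samples the correlations were 0.0664 to 0.193, not all over 0.1. Each was still the highest of its 2.8 mM sample with any Pcbp2βKO sample at 16.7 mM. What a shared number marks is not stated in the labels, and a pairing there was not tested further. The block gave 4 genes, 4 shares and 17 transcripts in Pcbp2βKO cells. For none of the alternatives in this section is the share of all genes, shares or transcripts called given here. Under total-count scaling the median log2 fold change of all genes was −0.35 in control and −0.47 in Pcbp2βKO cells. There Srsf11 was also called in Pcbp2βKO cells, at −0.60 (adjusted p = 0.00182), while the Srsf3 rise remained above that shift at 0.61 and 1.02. The Srsf1 share in control cells missed the threshold as a share of estimated counts (adjusted p = 0.0513) and with genes from 1 TPM (adjusted p = 0.0684), where more genes were tested. The cause of the other changes was not tested. Levels of Srsf9 and of minor transcripts are limited by depth.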

Other observations

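The members did not move as 1 block across the 17 samples. On the log2 CPM scale Srsf1 and Srsf7 had a Pearson correlation of 0.91, Srsf3 and Srsf7 of 0.88 and Srsf1 and Srsf3 of 0.85. Srsf4 ran against them, at −0.86 with Srsf3 and −0.80 with Srsf6, and Srsf5 had an average of 0.06 with the other members. These 17 samples include the 4 groups, share their libraries and differ in depth, so the values are descriptions.

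Outside the family, the genes whose log2 CPM was most like the mean standardised level of the 10 members were Spty2d1 (Pearson r = 0.82), Gm20342 (0.81), Dnajb4 (0.81), Mgat5 (0.81) and Ywhah (0.79), out of 10004 genes averaging at least 5 CPM over the 17 samples. The genes whose NMD and retained-intron share was most like that of the members were Taz (0.98), Maged1 (0.95), Uros (0.95), Pigb (0.93) and Flcn (0.93), out of 4313 genes. Both rest on 17 samples from 4 groups.

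Pcbp2βKO replicate 5 had the lowest Srsf4 and Srsf5 shares of its group at both glucose concentrations. The Srsf4 share was 14.3% at 2.8 mM and 16.8% at 16.7 mM, against 31.1 to 40.97% in the other Pcbp2βKO samples. The Srsf5 share was 3.19% and 5.63%, against 15.1 to 38.9%. Whether the same number marks the same animal is not stated in the labels.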
